A study of Mus musculus with 8 samples.

Results

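RNA sequencing of Fah-/- mice on the 129S4 background was compared between 3 mice whose moderate chronic liver injury (MCLI) of 8 weeks was followed by 4 weeks of severe injury (the C 8w + A 4w group, called the SALI livers here), and 2 mice with MCLI for 12 weeks (the C 12w group, called the tumors). Both groups had 12 weeks of injury in total and differed in the last 4 weeks. These 5 samples, chosen by their treatment labels, are 5 of the 8 samples sequenced, and the 3 other samples (C 8w, 8 weeks of MCLI) are given for their levels. Every mouse was labelled as lacking Fah, the last enzyme of tyrosine breakdown, and had been kept on 7.5 mg/L NTBC in drinking water. NTBC blocks an earlier step of the pathway and so prevents the toxic intermediates. MCLI was made by lowering NTBC to 2.5% of the curative dose, and severe acute liver injury (SALI) by removing it. The deletion affects every cell of the mouse. The labels name tumor as the tissue of C 12w and liver as that of the other groups, so that injury regimen and tissue changed together and cannot be told apart. They give neither age nor sex, and they do not say whether the 4 weeks without NTBC held pauses on the drug. Values are in FPKM (sequenced fragments relative to gene length and to each sample's mapped total). Sample values follow the order C096, C097, C098 for C 8w + A 4w and 2e, 3e for C 12w.

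Hepatocytes are quiescent in the healthy liver and re-enter the cell cycle after injury. Senescence is a lasting arrest of the cell cycle in which p53 and its target p21, a CDK inhibitor encoded by Cdkn1a, hold back the cyclin-CDK complexes. The Rb-family pocket proteins and the DREAM complex then keep E2F and mitotic genes silent, and senescent cells can secrete cytokines, proteases and their inhibitors. Hepatocellular carcinoma cells divide and lose parts of the hepatocyte programme, which covers plasma proteins, amino acid breakdown, lipid synthesis and drug metabolism.

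The targeted gene was read first. Fah was 5.02, 6.11 and 6.36 in the SALI livers against 14.4 and 13.5 in the tumors (log2 fold change -1.14 ± 0.16 SE, adjusted p = 0.00511), and 15.6, 16.5 and 16.8 in C 8w. It was therefore not at 0 in any sample labelled Fah-/-, and it was lower in the SALI livers without overlap. Whether the values come from exons beyond the disrupted part of the gene cannot be read from one value per gene. The extraction text of the labels names retinas, so tissue markers were also read. Crx, a photoreceptor transcription factor, was listed at 0 in all 8 samples. Of the 14 retina genes listed, 11 were under 0.1 FPKM in every sample and 2 were tested, of which limma called 0 (0 at an unadjusted p under 0.05). Hepatocyte genes were at high levels. Hnf4a, a master regulator of hepatocytes, was 83.1, 85.3 and 81.2 after SALI and 104 and 99.2 in the tumors (log2 fold change -0.29, adjusted p = 0.217), and the fibrinogen chain Fgb was 653, 626 and 701 in the SALI livers, with 753 and 607 in the tumors (log2 fold change -0.04, adjusted p = 0.92).

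Differences among samples of a group were read next. The Y-linked genes Ddx3y, Uty and Eif2s3y were listed at 0 in C096, in both C 12w samples and in the 3 C 8w samples, whereas Ddx3y was 13.7 and 10.2 in C097 and C098. The SALI livers thus held samples with and without Y-linked transcripts, and the tumors only samples without, so that the groups were not balanced in this respect. The sample codes of the SALI livers form one series and those of C 12w and C 8w another, so that group and code series cannot be told apart. Within the SALI livers, between 1.27% and 3.13% of the genes tested differed by at least 1 log2 unit between a pair of samples, against 6.86% between both C 12w tumors. The summed FPKM lay between 381348 and 399343 in the SALI livers and between 324735 and 364013 in C 12w. Steps between the lowest FPKM values put the worth of 1 fragment between 0.959 and 1.09 times that of sample 2e, which bears on relative depth only. The depth itself is unknown.

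Several abundant genes, many of them with close copies elsewhere in the genome, were listed at or near 0 in 1 code series. Alb (albumin) was listed at 0 in both C 12w and all C 8w samples and lay between 12946 and 16950 in the SALI livers. Ppia, a housekeeping isomerase, was 848, 782 and 761 in the SALI livers and 0.421 and 0.408 in the tumors. Of 10810 genes with at least 1 FPKM in at least 2 of the 5 samples, 64 were therefore set aside because one whole group was under 1% of the other group's mean. Of the 64 genes, 57 were near 0 in C 12w and 7 in the SALI livers, and 58 had over 2% shared sequence. Shared sequence is the percentage of 50-base windows of a gene's transcripts that another gene also contains. Among the 7 was Gckr, with no shared window, at 0.152, 0.169 and 0.239 in the SALI livers against 30.8 and 33.6 in the tumors, and 8.45, 9.76 and 13.1 in C 8w.

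Over the 10746 genes tested, 2281 (21.2%) were called at an adjusted p under 0.05, of which 1232 (11.5%) were higher and 1049 (9.76%) lower in the SALI livers. Every SALI liver lay above both C 12w samples for 28.3% of the genes tested and below both for 24.6%. The median log2 fold change over all genes tested was 0.008, and 1202 of the called genes changed by at least 1 on the log2(FPKM + 1) scale, which understates the change of low genes. When shared sequence was at most 2% (8616 genes), 712 genes were higher and 842 lower. Among the 381 genes with over 20% and at most 50% shared sequence, 157 were higher and 25 lower, with a median of 0.50. The share called higher was 9.07% among genes with no shared sequence and 41.2% in that class. Among the 300 genes with over 50% shared sequence, 58 (19.3%) were higher and 84 (28.0%) lower, with a median of 0.002. The part of shared sequence in single results was not tested. The number of calls depended on single samples. It was 868 without C098, 1067 without C096, 1437 without C097 and 226 when only samples without Y-linked values were compared, which left C096 against both tumors. The study describes the samples as individual animals, and p-values measure the spread between them.

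**Figure D1:**
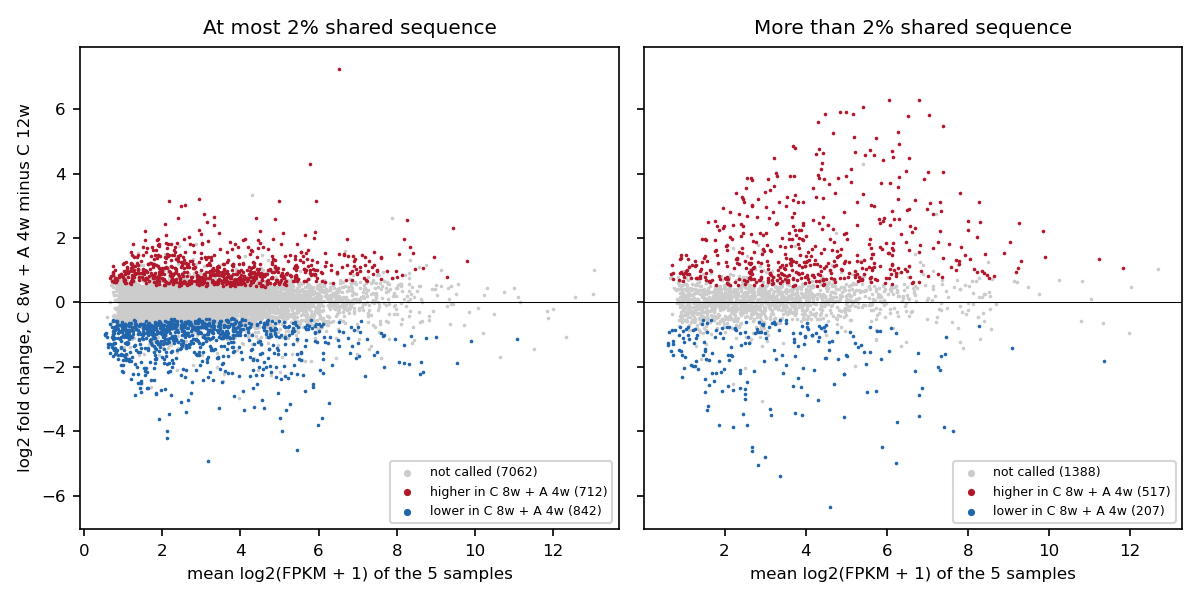
Log2 fold change (C 8w + A 4w minus C 12w, y axis) against the mean log2(FPKM + 1) of the 5 samples (x axis), 1 point per gene tested, with genes of at most 2% shared sequence on the left and of more on the right. Red points are called higher (712 on the left) and blue points lower (842 on the left) in C 8w + A 4w. Most of the rises of at least 3 log2 units are on the right.

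The mitotic machinery was low in the SALI livers and high in the tumors. Of 39 genes of mitosis and the spindle tested, 36 were lower and 0 higher, against 9.76% of all genes lower, with a median log2 fold change of -1.60. In 37 of them every SALI liver lay below both tumors, against 24.6% of all genes. However, a gene under 1 FPKM in every SALI liver passed the floor only if both tumors reached 1. The sign and lack of overlap of such genes, here and in other lists, follow from the floor. For them the shares of all genes are no fair measure, and their number among the 37 was not counted. Mki67, which encodes the proliferation marker Ki67, was 0.0957, 0.393 and 0.0936 after SALI and 4.34 and 6.24 in the tumors (log2 fold change -2.39 ± 0.21 SE, adjusted p = 0.000863). The tumors were many times above each SALI liver, and the groups did not overlap, as the floor required. C 8w livers were near the SALI livers, with Mki67 at 0.169, 0.208 and 0.372. Ccnb2, a B-type cyclin that drives entry into mitosis, was 0.491, 0.825 and 0.194 in the SALI livers, with 10.1 and 6.86 in the tumors (log2 fold change -2.65 ± 0.24 SE, adjusted p = 0.00108). Top2a, the topoisomerase that untangles chromosomes, was 0.122, 0.630 and 0.111 in the SALI livers and 4.57 and 12.4 in the tumors (log2 fold change -2.77 ± 0.39 SE, adjusted p = 0.00547). Cdca3, a trigger of mitotic entry, was 0.804, 0.967 and 0.749 in the SALI livers against 11.8 and 10.2 in the tumors (log2 fold change -2.71 ± 0.15 SE, adjusted p = 0.000138), and Cdc20, an activator of the anaphase-promoting complex, was 1.58, 0.900 and 1.09 after SALI and 14.5 and 11.9 in the tumors (log2 fold change -2.71 ± 0.19 SE, adjusted p = 0.00035). None of these 4 genes overlapped between groups, which the floor required for Ccnb2, Top2a and Cdca3. Ccnf, Hmmr and Incenp, all with negative log2 fold changes, were not called. For all 36 lower genes the C 8w mean was nearer to the SALI livers than to the tumors. Between 28 and 38 members were called when 1 sample was left out, and 7 when C096 alone was compared with both tumors. In bulk samples fewer cells of a type and less RNA per cell cannot be told apart.

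The promoters of 3 of these genes are shown because they carry short elements known from mitotic genes. The CHR element (TTTGAA) is a known binding site of the DREAM complex, and CCAAT boxes bind NF-Y. Sequences are RefSeq promoters of build GRCm38.p6 from 250 bases before to 50 bases after the start, read 5′ to 3′ on the gene's strand, with matches on either strand in capitals.
Ccnb2, chr9:70421505-70421804, minus strand: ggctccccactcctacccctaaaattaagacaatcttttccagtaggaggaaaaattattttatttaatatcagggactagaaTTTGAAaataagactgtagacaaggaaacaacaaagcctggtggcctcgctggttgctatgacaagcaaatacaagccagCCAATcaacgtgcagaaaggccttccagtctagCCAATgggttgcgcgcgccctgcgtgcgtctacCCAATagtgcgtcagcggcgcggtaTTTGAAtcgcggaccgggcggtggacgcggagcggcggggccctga
Cdca3, chr6:124829926-124830225, plus strand: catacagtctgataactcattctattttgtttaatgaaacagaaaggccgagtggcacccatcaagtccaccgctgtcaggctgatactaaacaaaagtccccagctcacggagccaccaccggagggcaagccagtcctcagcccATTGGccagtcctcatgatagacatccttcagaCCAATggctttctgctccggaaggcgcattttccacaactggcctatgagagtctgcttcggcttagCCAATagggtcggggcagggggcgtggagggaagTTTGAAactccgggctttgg
Top2a, chr11:99024140-99024439, minus strand: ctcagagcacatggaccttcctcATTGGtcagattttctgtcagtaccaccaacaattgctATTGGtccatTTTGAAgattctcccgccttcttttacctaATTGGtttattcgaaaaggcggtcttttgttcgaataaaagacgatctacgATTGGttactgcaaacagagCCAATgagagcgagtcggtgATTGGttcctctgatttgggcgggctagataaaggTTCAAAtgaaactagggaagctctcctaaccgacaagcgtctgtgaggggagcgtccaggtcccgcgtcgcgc

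The Ccnb2 promoter held 2 CHR and 3 CCAAT matches, that of Cdca3 held 1 and 3, and that of Top2a held 2 and 6. TTTGAA on either strand occurred in 23 of the 31 lower mitosis genes with a promoter entry (74.2%), against 20.2% of all 27025 genes with promoters of this length. CCAAT occurred in 22 of the 31 (71.0%), against 41.1% of all genes with such promoters. Over all 33 tested mitosis genes with an entry, TTTGAA occurred in 25 (75.8%) and CCAAT in 24 (72.7%), but 31 of the 33 are the lower genes themselves, so that these counts do not separate list members from lower genes. Over the 25 tested genes of DNA replication with an entry, TTTGAA occurred in 3 (12.0%) and CCAAT in 17 (68.0%). Among the 13 lower genes of DNA replication with an entry, 0 held TTTGAA and 8 held CCAAT (61.5%). A match describes these letters and is not evidence of binding.

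The DNA replication genes that were called were lower in the SALI livers, but for Pcna. Of 28 genes tested, 16 were lower and 1 higher, against 9.76% and 11.5% of all genes, with a median log2 fold change of -0.82. With at most 2% shared sequence, 11 of 21 were lower and 0 higher (median -0.81). Rrm2, a ribonucleotide reductase subunit, was 0.890, 1.38 and 0.931 in the SALI livers, with 7.15 and 18.2 in the tumors (log2 fold change -2.61 ± 0.36 SE, adjusted p = 0.00512). Mcm5 and Mcm6, subunits of the replicative helicase, had log2 fold changes of -2.41 and -2.24, with Mcm5 at 0.503, 1.15 and 0.462 in the SALI livers and 5.96 and 10.4 in the tumors. Prim1, the primase subunit, was 0.865, 1.35 and 0.713 in the SALI livers against 4.99 and 9.68 in the tumors (log2 fold change -2.03, adjusted p = 0.00527). In all 4 genes both tumors lay above every SALI liver, which the floor required for Mcm6. Pcna, the sliding clamp of DNA polymerases and a p53 target, ran the other way at 20.5, 25.6 and 23.0 after SALI and 4.96 and 11.9 in the tumors (log2 fold change 1.45 ± 0.32 SE, adjusted p = 0.0259), and 19.1% of its windows were shared. The number of members called fell from 17 to 12 without sample 3e, to 11 without C097, to 9 without C096 and to 7 without C098, and was 0 with C096 alone.

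The p53 targets that were called were all higher in the SALI livers. Of 27 p53 targets tested, 10 were higher and 0 lower, against 11.5% and 9.76% of all genes, with a median log2 fold change of 0.44. Cdkn1a, which encodes p21, was 109, 94.0 and 86.1 in the SALI livers, with 41.4 and 43.2 in the tumors (log2 fold change 1.16 ± 0.17 SE, adjusted p = 0.00596), and 39.5, 46.0 and 67.0 in C 8w. All 3 SALI livers lay above both tumors and above every C 8w sample. Ccng1 (cyclin G1) was 89.1, 96.6 and 65.5 in the SALI livers and 34.3 and 20.2 in the tumors (log2 fold change 1.61 ± 0.28 SE, adjusted p = 0.0112). Phlda3, an inhibitor of Akt signalling, was 26.7, 19.2 and 17.8 in the SALI livers against 9.46 and 3.49 in the tumors (log2 fold change 1.67 ± 0.37 SE, adjusted p = 0.0252), and Eda2r, a death-domain receptor, was 7.16, 7.46 and 5.64 after SALI and 2.47 and 0.780 in the tumors (log2 fold change 1.63 ± 0.30 SE, adjusted p = 0.0135). Zmat3, a p53-induced RNA-binding protein, was 13.5, 10.8 and 9.55 in the SALI livers, with 3.54 and 2.88 in the tumors (log2 fold change 1.54, adjusted p = 0.00346), and Mdm2, the p53 ubiquitin ligase, was 35.2, 29.1 and 25.7 in the SALI livers and 18.8 and 17.7 in the tumors (log2 fold change 0.68, adjusted p = 0.0396). Trp53 itself was 22.1, 21.5 and 20.2 in the SALI livers against 13.9 and 15.2 in the tumors (log2 fold change 0.51 ± 0.14 SE, adjusted p = 0.0449). None of these genes overlapped between groups. The pro-apoptotic targets Bax, Bbc3, Pmaip1 and Fas and the secreted factor Gdf15 were not called. Between 4 and 9 targets were called when 1 sample was left out (9 without either tumor, 5 without C096 or C097 and 4 without C098), and 0 with C096 alone.

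Cyclin-dependent kinases and their inhibitors did not move as 1 group. Of 21 genes tested, 2 were higher and 6 lower, against 11.5% and 9.76% of all genes, with a median log2 fold change of -0.27 (-0.54 without 2e, -0.17 without 3e and -0.51 without C097). Cdkn2b (p15), an inhibitor of Cdk4 and Cdk6, was 10.8, 15.0 and 12.3 after SALI and 8.06 and 6.73 in the tumors (log2 fold change 0.70, adjusted p = 0.0404). Cdkn2c (p18), an inhibitor of the same kinases, was 1.52, 1.10 and 1.21 in the SALI livers, with 4.57 and 6.69 in the tumors (log2 fold change -1.53, adjusted p = 0.00405), and Cdkn1b (p27) was 4.10, 2.87 and 3.53 in the SALI livers and 6.70 and 10.2 in the tumors (log2 fold change -1.06, adjusted p = 0.02). Cdkn2c and Cdkn1b were therefore lower where Cdkn1a and Cdkn2b were higher. Cdkn2a, the gene of p16 and p19Arf, was under 1 FPKM in every sample, at 0, 0.196 and 0 in the SALI livers against 0.0664 and 0.503 in the tumors. Cdk2, the S-phase kinase, was 2.72, 1.92 and 1.75 after SALI and 4.01 and 5.48 in the tumors (log2 fold change -0.88, adjusted p = 0.0295). Cdk4 (log2 fold change 0.06, adjusted p = 0.835), Cdk6 (log2 fold change -0.14, adjusted p = 0.736) and Rb1 (log2 fold change -0.16, adjusted p = 0.672) were not called. The E2F factors E2f8, at 0.0483, 0.190 and 0.0310 in the SALI livers, with 1.10 and 2.35 in the tumors (log2 fold change -1.29, adjusted p = 0.0135), and E2f2 (log2 fold change -1.06, adjusted p = 0.0104) were lower. The count of members called was 3 without C098, 5 without C096, without C097 or without 3e, and 0 with C096 alone.

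**Figure D2:**
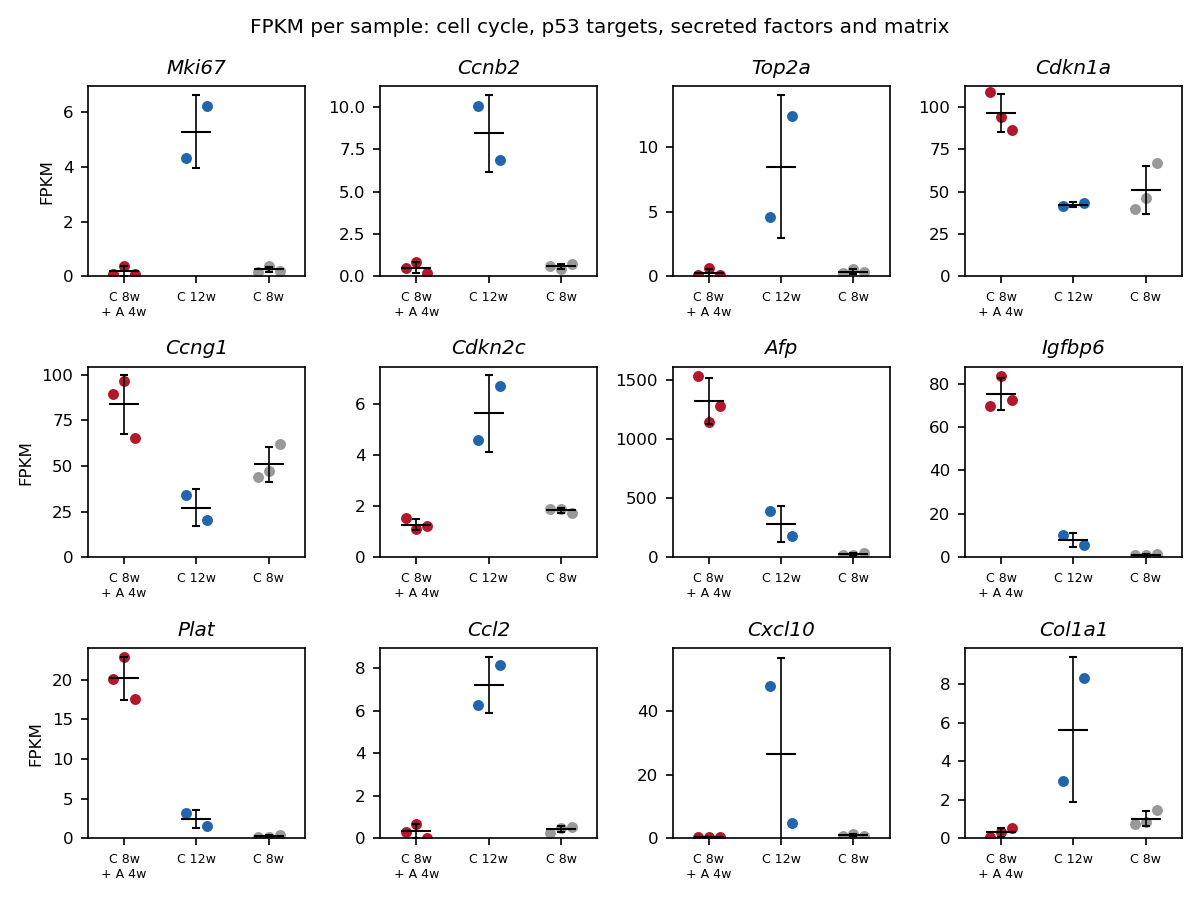
FPKM per sample (y axis, linear from 0) of 12 genes in C 8w + A 4w (red, n = 3), C 12w (blue, n = 2) and C 8w (grey, n = 3), with bars at the mean ± SD. Mki67, Ccnb2, Top2a, Cdkn2c, Ccl2, Cxcl10 and Col1a1 are highest in both tumors, and Cdkn1a, Ccng1, Afp, Igfbp6 and Plat in C 8w + A 4w.

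Of 25 factors tested that senescent cells can secrete, 3 were higher and 3 lower in the SALI livers, shares close to the 11.5% and 9.76% of all genes. Their median was -0.02, but -0.14 without 2e, 0.22 without 3e and 0.06 without C096. Igfbp6 and Plat were among the higher genes, and the lower genes were 3 chemokines. Igfbp6, a binder of insulin-like growth factor 2, was 69.6, 83.5 and 72.6 in the SALI livers and 10.1 and 5.49 in the tumors (log2 fold change 3.16 ± 0.25 SE, adjusted p = 0.000577), and 0.981, 0.981 and 1.68 in C 8w. Plat, tissue plasminogen activator, was 20.1, 22.9 and 17.5 in the SALI livers against 3.25 and 1.59 in the tumors (log2 fold change 2.66 ± 0.24 SE, adjusted p = 0.00106). In both genes the SALI livers were the highest of the 3 groups. Ccl2, the chemokine that recruits monocytes, was 0.320, 0.661 and 0 after SALI and 6.29 and 8.14 in the tumors (log2 fold change -2.65 ± 0.25 SE, adjusted p = 0.00114). Cxcl10, an interferon-induced T-cell chemokine, was 0.359, 0.346 and 0.456 in the SALI livers, with 47.8 and 4.84 in the tumors (log2 fold change -3.61 ± 0.79 SE, adjusted p = 0.0248), so that the tumors differed from each other by more than the lower tumor differed from the SALI livers. Cxcl1, a neutrophil chemokine, was 0.619, 1.71 and 2.85 in the SALI livers and 15.7 and 6.37 in the tumors (log2 fold change -2.11, adjusted p = 0.024). Il6 was at or below 0.0350 in all 8 samples, and Il1b (log2 fold change 0.40, adjusted p = 0.479) and Tgfb1 (log2 fold change 0.02, adjusted p = 0.968) were not called. Between 4 and 10 members were called when 1 sample was left out (10 without 2e, 4 without C096 or C097), and 2 with C096 alone.

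Interferon-stimulated genes were lower in the SALI livers where they were called, at 8 of 25 tested, against 9.76% of all genes (0 higher, median -0.83), and at 6 of 15 with at most 2% shared sequence, with 5 called in a fit of such genes alone. Bst2, a tether of budding virus, was 38.1, 60.7 and 52.4 in the SALI livers against 138 and 101 in the tumors (log2 fold change -1.24, adjusted p = 0.0187), and Irf7, the regulator of the interferon response, was 0.712, 2.57 and 0.991 after SALI and 4.75 and 3.79 in the tumors (log2 fold change -1.19, adjusted p = 0.0466). In MHC class I and II presentation, 2 of 19 were lower, a share near the 9.76% of all genes, with B2m at 543, 826 and 726 in the SALI livers, with 1526 and 1625 in the tumors (log2 fold change -1.19, adjusted p = 0.025) and H2-K1 (log2 fold change -1.59, adjusted p = 0.00367) as the called members. Macrophage markers differed within the SALI livers. The Kupffer cell and macrophage markers, none of them at 0 in all samples, summed to 940 FPKM in C097, 436 in C096 and 376 in C098, against 436 and 466 in the tumors, and their part in the result was not tested. The interferon count was 0 without C096, 0 without C098, 3 without 3e and 11 without C097. With C096 alone it was 0. The MHC count was 5 without C097, 3 without 2e, 1 without C096 or C098 and 0 with C096 alone.

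Immune cell markers are read against the 21.2% of all genes that were called. Among the 23 Kupffer cell and macrophage markers, 2 were higher and 0 lower, with a median of 0.39 (0.03 without 3e, 0.66 without C098 and -0.21 without C097), namely the scavenger receptor Cd163 at 4.80, 7.98 and 3.51 in the SALI livers and 1.41 and 0.403 in the tumors (log2 fold change 1.75, adjusted p = 0.0188) and the lipopolysaccharide co-receptor Cd14 at 45.9, 26.3 and 31.7 in the SALI livers against 13.2 and 7.20 in the tumors (log2 fold change 1.69, adjusted p = 0.0146). Cd68, a lysosomal macrophage marker, was 9.56, 11.6 and 5.79 after SALI and 12.5 and 7.40 in the tumors (log2 fold change -0.14, adjusted p = 0.795), and the groups overlapped. Among 15 markers of recruited myeloid cells, 3 were higher and 2 lower, with a median of -0.15 (0.03 without 2e, -0.34 without 3e, 0.06 without C096, -0.42 without C097 and -0.03 without C098). The lower members were Ccl2, given above, and the matrix protein gene Fn1, at 32.3, 53.8 and 49.9 in the SALI livers, with 122 and 143 in the tumors (log2 fold change -1.56, adjusted p = 0.00894). Among the higher members, Ccl6, a myeloid chemokine, was 17.2, 33.7 and 16.6 in the SALI livers and 7.22 and 3.40 in the tumors (log2 fold change 1.89, adjusted p = 0.0193), and Cd63, a lysosomal tetraspanin also found in many other cells, was 132, 93.6 and 104 in the SALI livers against 8.41 and 3.06 in the tumors (log2 fold change 4.15, adjusted p = 0.00085) with 11.02% shared windows. Cd63 was 2.34, 2.82 and 3.28 in C 8w, low as in the tumors of the same code series, whose part was not tested. Fabp4, the fatty acid binder of adipocytes, capillaries and lipid-laden macrophages, was 101, 146 and 209 after SALI and 15.8 and 15.6 in the tumors (log2 fold change 3.14 ± 0.30 SE, adjusted p = 0.00121). Of 5 lymphocyte and NK cell markers tested, Eomes was higher at 9.27, 3.46 and 4.21 in the SALI livers, with 1.53 and 0.240 in the tumors (log2 fold change 1.81, adjusted p = 0.0333). The median of the 5 was -0.69, with 2 positive and 3 negative log2 fold changes. Ccl5 was 0.269, 1.26 and 0.273 in the SALI livers against 4.62 and 1.37 in the tumors (log2 fold change -1.25, adjusted p = 0.0863). Neither Ccl5 nor Ptprc (log2 fold change -0.71, adjusted p = 0.211) was called. In this list 26 others were under the floor, among them Tbx21 and B3gat1. Itgam was also under the floor, at 0.149 to 0.277 in the SALI livers. Of 5 neutrophil markers 0 were called by limma (2 at an unadjusted p under 0.05), and 1 was called without 2e, without 3e or without C097. Macrophage calls numbered 4 without C097, 1 without 3e, C096 or C098 and 0 with C096 alone, and recruited myeloid calls between 4 and 5, with 3 for C096 alone. Lymphocyte calls numbered 3 without C097 and 0 without C096 or C098.

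Among plasma proteins, the called complement genes were all lower in the SALI livers, with the largest log2 fold changes in C8a, C4bp, C8b and C9. Of 28 genes tested, 17 were lower and 0 higher, against 9.76% of all genes lower, with a median log2 fold change of -1.46. C8a, C8b and C9 encode parts of the membrane attack complex. C8a was 0.776, 2.24 and 1.10 in the SALI livers and 99.2 and 46.9 in the tumors (log2 fold change -4.92 ± 0.38 SE, adjusted p = 0.000524), C8b was 0.385, 0.474 and 0.480 in the SALI livers against 52.4 and 8.91 in the tumors (log2 fold change -3.99 ± 0.63 SE, adjusted p = 0.00866) and C9 was 7.15, 25.4 and 12.2 after SALI and 110.1 and 182 in the tumors (log2 fold change -3.33 ± 0.49 SE, adjusted p = 0.00657). No SALI liver reached a tumor in these 3 genes, which the floor required for C8b. C 8w lay between the groups for C8a, at 5.61, 7.95 and 11.03. C4bp, an inhibitor of the classical pathway, was 6.02, 16.8 and 9.59 in the SALI livers, with 165 and 186 in the tumors (log2 fold change -4.00 ± 0.37 SE, adjusted p = 0.00109), and C3, the central component, was 307, 512 and 539 in the SALI livers and 1603 and 1640.4 in the tumors (log2 fold change -1.88, adjusted p = 0.00895). The macrophage-made genes C1qa, C1qb and C1qc and the receptors C3ar1 and C5ar1 were not called. Between 12 and 18 members were called when 1 sample was left out, and 5 with C096 alone.

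Most coagulation genes that were called were lower in the SALI livers. Of 26 tested, 14 were lower, against 9.76% of all genes, 2 were higher (Plat, given above, among them) and 10 were not called, with a median of -0.87. F7, the start of the extrinsic pathway, was 1.29, 1.54 and 1.31 in the SALI livers against 25.7 and 14.3 in the tumors (log2 fold change -3.09 ± 0.25 SE, adjusted p = 0.000629). F12, of the contact pathway, was 29.8, 21.4 and 25.1 after SALI and 119 and 128 in the tumors (log2 fold change -2.25 ± 0.18 SE, adjusted p = 0.000644), and F2 (prothrombin) was 99.3, 118 and 133 in the SALI livers, with 528 and 414 in the tumors (log2 fold change -2.00, adjusted p = 0.00201). Serpind1 (heparin cofactor II) was 15.1, 41.7 and 31.2 in the SALI livers and 250.7 and 115 in the tumors (log2 fold change -2.61, adjusted p = 0.0147), and Proz (protein Z) was 6.24, 15.5 and 9.24 in the SALI livers against 93.8 and 38.8 in the tumors (log2 fold change -2.52, adjusted p = 0.0138). The groups did not overlap in these 5 genes. For 14 of the 16 called genes C 8w was nearer to the tumors. The count of members called was 8 without C098 and 10 without C096, and 3 with C096 alone.

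The called acute phase proteins, which the liver secretes in inflammation, were lower in the SALI livers but for Saa3 and Orm3, which both had over 2% shared sequence. Of 23 tested, 7 were lower and 2 higher, against 9.76% and 11.5% of all genes, with a median of -0.47 (-0.22 without 2e and -0.85 without 3e). Among the 17 with at most 2% shared sequence, 7 were lower and 0 higher, with a median of -1.06. Crp was 4.63, 10.1 and 8.19 after SALI and 76.5 and 80.4 in the tumors (log2 fold change -3.26 ± 0.29 SE, adjusted p = 0.000949). The inter-alpha-trypsin inhibitor chains Itih4, at 10.5, 29.1 and 31.1 in the SALI livers, with 292 and 324 in the tumors (log2 fold change -3.79 ± 0.45 SE, adjusted p = 0.00301), and Itih3 (log2 fold change -2.20, adjusted p = 0.000438) were lower. Saa3, the serum amyloid made by macrophages and other cells in inflammation, was higher at 20.5, 22.3 and 14.02 in the SALI livers and 5.59 and 0.897 in the tumors (log2 fold change 2.47 ± 0.51 SE, adjusted p = 0.0195), and 3.57% of its windows were shared. The count was 3 without C096, 5 without C098 and 6 without C097, and 2 with C096 alone.

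Genes of amino acid breakdown that were called were lower in the SALI livers, but for Ass1, and the C 8w livers were nearer to the tumors. Of 40 genes of amino acid breakdown, the urea cycle and gluconeogenesis, 12 were lower and 1 higher, against 9.76% and 11.5% of all genes, with a median of -1.07 (-0.60 without 2e), and C 8w was nearer to the tumors for all 13. Ftcd, which passes histidine carbons to folate, was 23.9, 22.1 and 22.1 in the SALI livers against 158 and 156 in the tumors (log2 fold change -2.74 ± 0.14 SE, adjusted p = 9.54e-05), and 78.4, 91.2 and 108 in C 8w. Cbs, of transsulfuration, was 23.5, 29.3 and 30.2 after SALI and 201 and 134 in the tumors (log2 fold change -2.53 ± 0.23 SE, adjusted p = 0.00094), and Gls2, the liver glutaminase, was 14.5, 17.9 and 24.5 in the SALI livers, with 136 and 69.4 in the tumors (log2 fold change -2.33, adjusted p = 0.00603). Uroc1 and Hal, which act in histidine breakdown, had log2 fold changes of -2.30 and -2.19. Otc, of the urea cycle, was 41.2, 44.9 and 38.9 in the SALI livers and 77.7 and 70.4 in the tumors (log2 fold change -0.81, adjusted p = 0.0147). All SALI livers lay below both tumors for these genes. The other tyrosine enzymes Hpd, the target of NTBC (log2 fold change -0.35, adjusted p = 0.411), Hgd (log2 fold change -0.38, adjusted p = 0.384) and Gstz1 (log2 fold change -0.67, adjusted p = 0.0698) were not called. Ass1, the higher member, was 283, 267 and 277 in the SALI livers against 37.4 and 5.86 in the tumors with 38.6% shared windows (log2 fold change 4.09, adjusted p = 0.00858). It was 12.2, 12.7 and 15.0 in C 8w, low as in the tumors of the same code series, whose part was not tested. Without tumor 3e 27 members were called, without C096 or C098 9, and with C096 alone 3.

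Most called genes of fatty acid synthesis and all of cholesterol synthesis were lower in the SALI livers. Of 24 genes of fatty acid synthesis, 9 were lower and 2 higher, against 9.76% and 11.5% of all genes, with a median of -0.64. Scd1, the delta-9 desaturase, was 6.86, 20.7 and 38.1 after SALI and 2145 and 167 in the tumors (log2 fold change -5.00 ± 1.12 SE, adjusted p = 0.0261), and 4.56% of its windows were shared. The tumors lay far apart, and the lower of them was above every SALI liver. The polyunsaturated fatty acid desaturases Fads1, at 5.66, 6.48 and 5.12 in the SALI livers, with 142 and 31.3 in the tumors (log2 fold change -3.34 ± 0.57 SE, adjusted p = 0.0109), and Fads2, at 30.3, 33.4 and 30.9 in the SALI livers and 572 and 138 in the tumors (log2 fold change -3.12 ± 0.54 SE, adjusted p = 0.0116), showed the same order. Srebf1, which encodes the lipogenic factor SREBP1, was 10.02, 14.7 and 17.2 in the SALI livers against 94.3 and 34.4 in the tumors (log2 fold change -1.99, adjusted p = 0.0237), and Fasn, fatty acid synthase, was 3.08, 8.45 and 3.30 after SALI and 24.3 and 12.3 in the tumors (log2 fold change -1.74, adjusted p = 0.0367). Of 25 genes of cholesterol synthesis and uptake, 6 were lower and 0 higher, with a median of -0.69 (-1.13 without C097 and -0.42 without C098). Nsdhl, a sterol enzyme, was 3.43, 7.82 and 2.30 in the SALI livers, with 13.9 and 13.2 in the tumors (log2 fold change -1.52 ± 0.39 SE, adjusted p = 0.0394). Every SALI liver lay below both tumors. Fatty acid synthesis calls numbered 4 without C098, 5 without C096 and 0 with C096 alone, and cholesterol calls 1 without C096, 2 without C098 or 2e, 9 without C097 and 1 with C096 alone.

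Of 30 genes of fatty acid oxidation and ketogenesis, 6 were higher and 1 lower, against 11.5% higher and 9.76% lower over all genes, with a median of 0.17 (0.04 without 3e). Among the 22 with at most 2% shared sequence, 2 were higher and 1 lower, so that 4 of the 6 higher genes were shared-sequence genes, and 3 were called in a fit of low-sharing genes alone. Pdk4, which spares glucose in fasting, was 67.4, 79.9 and 67.1 in the SALI livers and 19.9 and 27.4 in the tumors (log2 fold change 1.57 ± 0.19 SE, adjusted p = 0.0035). Hadhb, a subunit of the trifunctional protein, was 154, 138 and 171 in the SALI livers against 20.02 and 20.9 in the tumors (log2 fold change 2.85, adjusted p = 0.000144), with 19.7% shared windows and 24.3, 27.1 and 31.6 in C 8w. Its partner Hadha was 97.7, 102 and 106 after SALI and 90.0 and 89.9 in the tumors (log2 fold change 0.18, adjusted p = 0.443). Bdh1, of ketone synthesis, was 20.4, 32.6 and 24.0 in the SALI livers, with 59.8 and 49.4 in the tumors (log2 fold change -1.08, adjusted p = 0.021). The count was 3 without C096 or C098, 4 without C097 and 1 with C096 alone.

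**Figure D3:**
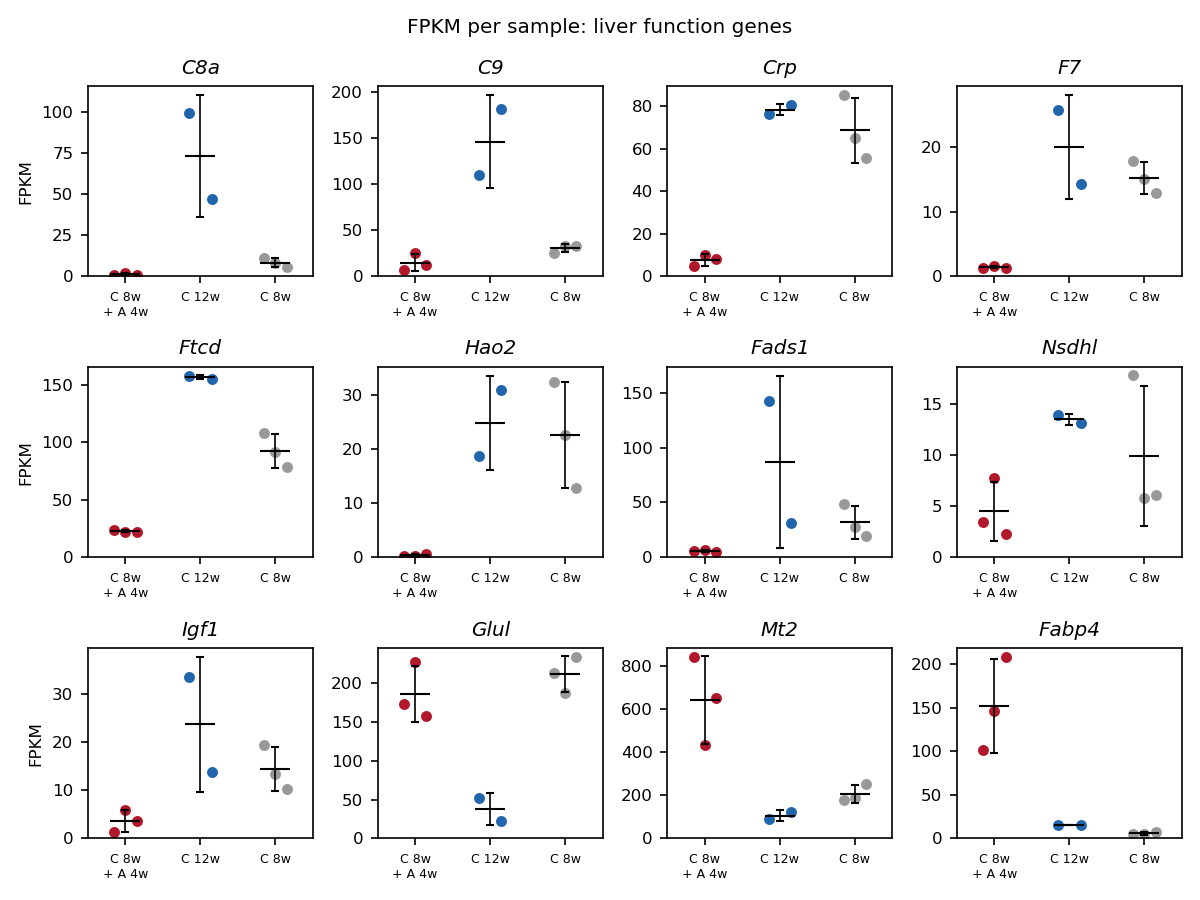
FPKM per sample (y axis, linear from 0) of 12 genes of liver function in C 8w + A 4w (red, n = 3), C 12w (blue, n = 2) and C 8w (grey, n = 3), with bars at the mean ± SD. C8a, C9, Crp, F7, Ftcd, Hao2, Fads1, Nsdhl and Igf1 are lower in every C 8w + A 4w sample than in either tumor, and Glul, Mt2 and Fabp4 are higher.

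Drug-metabolising enzymes split, and genes of the pericentral zone were higher in the SALI livers where called. Among 37 P450s, flavin monooxygenases and sulfotransferases, 11 were higher and 5 lower, against 11.5% and 9.76% of all genes, with a median of 0.38 (0.12 without 3e). Only 14 had at most 2% shared sequence, of which 4 were higher and 2 lower, with a median of 0.15. Cyp4a10, an omega-hydroxylase induced by PPARalpha, was 501, 414 and 673 in the SALI livers and 102 and 79.1 in the tumors (log2 fold change 2.52 ± 0.26 SE, adjusted p = 0.00183), with 29.8% shared windows. Cyp4f14 (0.624, 1.58 and 1.24 in the SALI livers against 37.1 and 87.8 in the tumors, log2 fold change -4.78, adjusted p = 0.000598) and Cyp2j5 (9.24, 20.6 and 17.6 after SALI and 109 and 179 in the tumors, log2 fold change -3.14, adjusted p = 0.00293) were lower. Of 19 pericentral Wnt-dependent genes 4 were higher and 0 lower, with a median of 0.41 (0.91 without 2e, 0.19 without 3e and 0.18 without C097), and with at most 2% shared sequence 2 of 14 were higher (median 0.30). Glul, glutamine synthetase of the hepatocytes around the central vein, was 173, 227 and 158 in the SALI livers, with 52.2 and 22.7 in the tumors (log2 fold change 2.38 ± 0.36 SE, adjusted p = 0.00719), and 188, 214 and 234 in C 8w. Cyp2e1 was 521, 900.1 and 795 in the SALI livers and 289 and 217 in the tumors (log2 fold change 1.52, adjusted p = 0.0171), and 1559, 1672 and 1916 in C 8w, so that the SALI livers lay between the tumors and C 8w. Glul shared 11.9% and Cyp2e1 3.87% of windows. Axin2, a direct Wnt target, was 1.02, 3.73 and 0.992 in the SALI livers against 1.33 and 0.726 in the tumors (log2 fold change 0.41, adjusted p = 0.514), and the groups overlapped. Enzyme calls numbered 7 without C096 or C098, 25 without 2e and 2 with C096 alone. Pericentral calls numbered 1 without C098, 2 without C097, 6 without either tumor and 0 with C096 alone.

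Of 24 genes of bile acid synthesis and transport, 3 were lower, a share near the 9.76% of all genes, with a median of -0.24 (-0.05 without C096, -0.44 without 3e and -0.38 over the 22 with at most 2% shared sequence). Slc10a2, the apical bile acid transporter, was 0.0327, 0.202 and 0.129 after SALI and 4.60 and 11.03 in the tumors (log2 fold change -2.87 ± 0.32 SE, adjusted p = 0.00241), against 0.00603, 0.0224 and 0.0245 in C 8w, so that both tumors lay above every sample of the other groups. Fgfr4, the receptor that represses bile acid synthesis, was 2.04, 2.30 and 3.04 in the SALI livers, with 12.5 and 26.2 in the tumors (log2 fold change -2.48, adjusted p = 0.00363). Cyp7a1, the rate-limiting enzyme, was 0.836, 3.47 and 2.27 in the SALI livers and 14.4 and 3.17 in the tumors (log2 fold change -1.42, adjusted p = 0.145), and the groups overlapped. Without 2e 8 members were called, without 3e 7 and with C096 alone 0. In the growth hormone axis, 4 of 22 genes were lower and 1 higher, against 9.76% and 11.5% of all genes, with a median of -0.23 (-0.14 without 2e and 0.01 without 3e). Igf1 was 1.38, 5.93 and 3.68 in the SALI livers against 33.5 and 13.7 in the tumors (log2 fold change -2.41 ± 0.52 SE, adjusted p = 0.0239). Igfals, which stabilises it in plasma, was 1.34, 3.62 and 1.70 after SALI and 33.1 and 12.5 in the tumors (log2 fold change -2.80 ± 0.45 SE, adjusted p = 0.00894), and the receptor Ghr was 8.18, 13.8 and 11.5 in the SALI livers, with 47.0 and 30.1 in the tumors (log2 fold change -1.69, adjusted p = 0.00904). All 3 were lower without overlap, and C 8w was at 10.3, 13.4 and 19.3 for Igf1. The count was 3 without C096 or C098, 8 without 3e and 0 with C096 alone.

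Oncofetal genes were called in both directions. Of 22 tested, 3 were higher and 2 lower in the SALI livers, with a median of -0.02 (between -0.16 without 3e and 0.03 without C098), shares near the 11.5% and 9.76% of all genes. With at most 2% shared sequence, 2 of 16 were higher and 1 lower, with a median of 0.14. Afp, the fetal serum protein used as a marker of liver cancer, was 1533, 1147 and 1278 in the SALI livers and 391 and 177 in the tumors (log2 fold change 2.31 ± 0.37 SE, adjusted p = 0.00858), and 15.4, 19.3 and 37.6 in C 8w. Afp was thus highest in the SALI livers, lower in the tumors and lowest in C 8w. Cd24a, a progenitor and carcinoma surface protein, was 41.3, 15.0 and 12.4 in the SALI livers against 3.54 and 5.27 in the tumors (log2 fold change 1.96, adjusted p = 0.0354), and C096 was the highest. Of the lower members, Scd2 was 9.15, 59.0 and 14.4 in the SALI livers, with 117 and 173 in the tumors (log2 fold change -2.77, adjusted p = 0.0388), and 3.97% of its windows were shared. Gpc3 was 83.2, 99.8 and 83.9 after SALI and 39.3 and 157 in the tumors (log2 fold change 0.17, adjusted p = 0.85), and the groups overlapped. Some markers were high in 1 tumor only. Igf2 was 656 in 2e and 29.9 in 3e, Tff3 was 227 and 11.7, and the ductal genes Spp1 and Sox9 were 22.2 and 311 and 3.61 and 19.9, and none of these 4 was called. Bile duct and progenitor markers were called higher in 3 and lower in 2 of 16 (median -0.29, which was -0.69 without 2e and 0.02 without 3e), against 11.5% and 9.76% of all genes. The lower members were Anxa13, an epithelial annexin, at 1.93, 6.997 and 3.48 in the SALI livers, with 12.9 and 39.1 in the tumors (log2 fold change -2.33, adjusted p = 0.031), and Prom1, a progenitor surface protein, at 1.31, 2.36 and 1.18 in the SALI livers and 3.57 and 4.15 in the tumors (log2 fold change -0.92, adjusted p = 0.034). Of the members with positive log2 fold changes, Cldn4, a tight junction protein of ducts, was 20.2, 11.4 and 8.20 in the SALI livers against 4.37 and 1.62 in the tumors (log2 fold change 1.84, adjusted p = 0.0295), and Krt19 was 1.48, 1.25 and 2.22 after SALI and 0.798 and 1.06 in the tumors (log2 fold change 0.45, adjusted p = 0.171). Oncofetal calls numbered 11 without 2e, 3 without C097, 2 without C096 and 1 without C098, with 2 for C096 alone. Bile duct calls numbered 10 without 2e, 2 without 3e or C097, 1 without C096 or C098 and 1 with C096 alone.

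Collagens that were called were lower, while some markers of stellate cells were higher, in the SALI livers. Of 24 collagen and matrix genes tested, 9 were lower and 2 higher, against 9.76% and 11.5% of all genes, with a median of -0.74. Col1a1 was 0.0618, 0.337 and 0.528 in the SALI livers, with 2.97 and 8.29 in the tumors (log2 fold change -2.23 ± 0.37 SE, adjusted p = 0.01), Col3a1 was 0.182, 1.72 and 1.39 in the SALI livers and 8.85 and 15.5 in the tumors (log2 fold change -2.69 ± 0.40 SE, adjusted p = 0.0071) and the basement membrane chain Col4a1 was 1.22, 2.82 and 2.20 in the SALI livers against 8.26 and 20.7 in the tumors (log2 fold change -2.24 ± 0.40 SE, adjusted p = 0.0126). Both tumors were above every SALI liver, which the floor required for Col1a1, and tumor 3e was the highest each time. For 9 of the 11 called genes C 8w was nearer to the SALI livers. The stellate cell and fibroblast markers summed to between 192 and 266 FPKM in the SALI livers and between 127 and 138 in C 12w. Of 19 tested, 5 were higher and 1 (Col1a1) lower, against 11.5% of all genes higher, with a median of 0.28 (0.45 without 3e, 0.52 without C096 and 0.09 without C097). Lrat, which stores retinol in stellate cells, was 5.75, 10.8 and 6.49 after SALI and 2.78 and 2.01 in the tumors (log2 fold change 1.32 ± 0.27 SE, adjusted p = 0.0193), and Dcn (decorin) was 77.2, 116 and 104 in the SALI livers, with 48.1 and 40.5 in the tumors (log2 fold change 1.13, adjusted p = 0.0163). The 19 endothelial markers held 2 higher genes, close to the 11.5% of all genes, namely Plvap at 48.3, 51.2 and 44.9 in the SALI livers and 27.2 and 26.0 in the tumors (log2 fold change 0.83, adjusted p = 0.0117) and Rspo3 (log2 fold change 0.93, adjusted p = 0.0462). Matrix calls numbered 5 without C096 or C098, 7 without 3e and 1 with C096 alone. Stellate calls numbered 2 without C098, 4 without 3e and 0 with C096 alone. Endothelial calls numbered 0 without C098, 1 without 3e or C097, 3 without C096, 5 without 2e and 0 with C096 alone.

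The metallothioneins Mt1 and Mt2 and the oxidative defence genes Srxn1 and Hmox1 were higher in the SALI livers. Of 23 genes of iron handling and metallothioneins, 4 were higher and 4 lower, against 11.5% and 9.76% of all genes, with a median of 0.02 (between -0.16 without 2e and 0.19 without C096). With at most 2% shared sequence, 3 of 19 were higher and 2 lower, and a fit of such genes alone called 4. The metallothioneins Mt2, at 842, 436 and 654 in the SALI livers against 88.7 and 123 in the tumors (log2 fold change 2.56 ± 0.32 SE, adjusted p = 0.0037), and Mt1, at 688, 347 and 606 after SALI and 157 and 206 in the tumors (log2 fold change 1.54 ± 0.33 SE, adjusted p = 0.0236), were higher without overlap. Hamp2, a hepcidin gene, was 2.01, 1.62 and 0.924 in the SALI livers, with 27.8 and 7.48 in the tumors (log2 fold change -2.66, adjusted p = 0.0149), and Tfr2, an iron sensor of hepatocytes, was 6.04, 7.70 and 8.26 in the SALI livers and 56.8 and 27.1 in the tumors (log2 fold change -2.28, adjusted p = 0.00519). Of 29 Nrf2 targets, 7 were higher and 1 lower, against 11.5% and 9.76% of all genes. Their median was 0.59, but 0.10 without 2e and 1.08 without 3e. Among the 19 with at most 2% shared sequence, 3 were higher and 1 lower, and 3 were called in a fit of such genes alone. Srxn1 (sulfiredoxin) was 782, 709 and 693 in the SALI livers against 285 and 259.8 in the tumors (log2 fold change 1.41 ± 0.19 SE, adjusted p = 0.00515), and Hmox1 (heme oxygenase 1) was 167, 234 and 245 after SALI and 100.1 and 133 in the tumors (log2 fold change 0.87, adjusted p = 0.0481). Osgin1, the lower member, was 71.4, 105 and 73.0 in the SALI livers, with 183 and 367 in the tumors (log2 fold change -1.65, adjusted p = 0.0192). Nqo1 (219, 233 and 247 in the SALI livers and 98.6 and 342 in the tumors) and Gclc (620.0, 679 and 716 in the SALI livers against 313 and 1238 in the tumors) had 1 tumor on either side of the SALI livers and were not called. Iron calls numbered 2 without C098, 3 without C096, 5 without C097, 12 without 3e and 0 with C096 alone. Nrf2 calls numbered 22 without 3e, 5 without C097, 4 without C096, 3 without C098 and 0 with C096 alone.

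**Figure D4:**
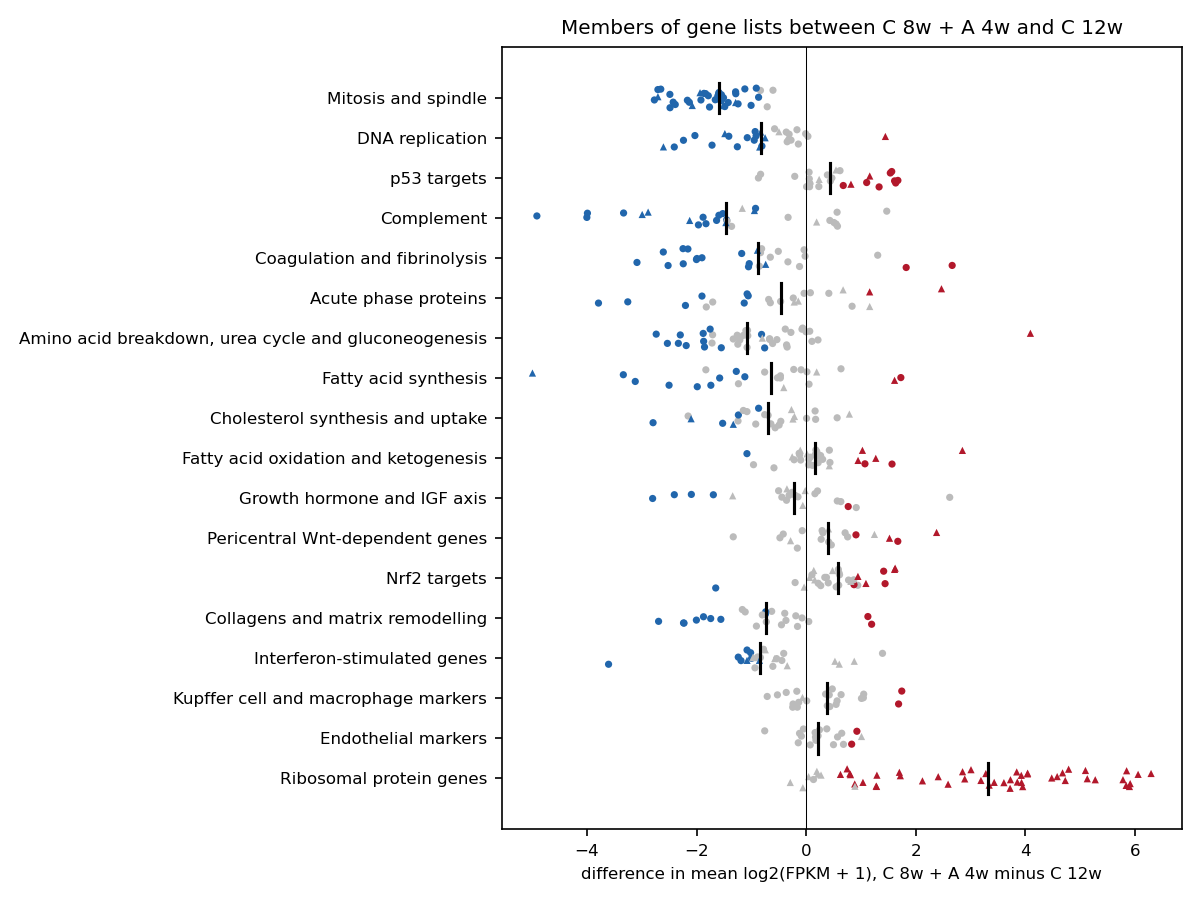
Difference in mean log2(FPKM + 1), C 8w + A 4w minus C 12w (x axis) for the tested members of 18 gene lists (y axis), 1 point per gene, with a vertical bar at the list's median. Red points are called higher, blue points lower and grey points not called, and triangles are genes with over 2% shared sequence. Mitosis genes lie left of 0 throughout (median -1.60). Of the ribosomal protein genes (median 3.31), 52 lie to its right and 2 to its left, and all are triangles but for 1.

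The largest rises among genes with at most 2% shared sequence were, beside those above, a mixed set. Defb1, an epithelial antimicrobial peptide, was 295, 124 and 159 after SALI and 15.8 and 4.00 in the tumors (log2 fold change 4.30 ± 0.57 SE, adjusted p = 0.00456). Cyp26b1, which degrades retinoic acid, was 20.7, 12.7 and 20.8 in the SALI livers, with 1.49 and 0.595 in the tumors (log2 fold change 3.23 ± 0.29 SE, adjusted p = 0.000949). C1qtnf4, a secreted C1q family protein, Ly6k, Rtn4rl2, Fndc10 and Fbxo2, a substrate adaptor for ubiquitination of glycoproteins, had log2 fold changes of 3.01, 2.98, 2.74, 2.64 and 2.63. Ube2s, a ubiquitin-conjugating enzyme of the anaphase-promoting complex, was 11.1, 9.36 and 8.86 in the SALI livers and 0.207 and 0.217 in the tumors, and 0.0630, 0.0822 and 0.141 in C 8w. mt-Atp8, a mitochondrially encoded ATP synthase subunit, was 586, 622 and 862 in the SALI livers against 0 and 19.04 in the tumors (log2 fold change 7.25 ± 1.12 SE, adjusted p = 0.00785), with 0 in every C 8w sample. Tumor 3e thus held a low level where 2e was at 0. Ube2s and mt-Atp8 were low in the whole code series of C 12w and C 8w, as were the set-aside genes Alb and Ppia. The part of the code series in their rises was not tested.

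Of the largest falls not given above, Car3, a carbonic anhydrase, was 1.92, 62.1 and 8.95 after SALI and 249.5 and 344 in the tumors (log2 fold change -4.59 ± 1.15 SE, adjusted p = 0.0361), with C097 well above the other samples of its group. Hao2, a peroxisomal hydroxyacid oxidase, was 0.321, 0.157 and 0.679 in the SALI livers, with 18.8 and 31.0 in the tumors (log2 fold change -4.20 ± 0.26 SE, adjusted p = 0.00022). Pigr, which carries IgA into bile, was 9.76, 13 and 10.5 in the SALI livers and 81.4 and 253 in the tumors (log2 fold change -3.59 ± 0.45 SE, adjusted p = 0.00363), and Serpina6, the corticosteroid carrier, was 14.4, 50.9 and 19.2 in the SALI livers against 199 and 461 in the tumors (log2 fold change -3.59 ± 0.58 SE, adjusted p = 0.009). Inhbe, an activin subunit of hepatocytes, was 1.57, 1.76 and 0.884 after SALI and 27.4 and 21.5 in the tumors (log2 fold change -3.41 ± 0.22 SE, adjusted p = 0.000235), against 1.95, 2.02 and 3.16 in C 8w, so that the tumors stood above both other groups. Aspdh was 0.516, 0.836 and 0.864 in the SALI livers, with 35.4 and 8.85 in the tumors (log2 fold change -3.45, adjusted p = 0.00652). A lack of overlap was a condition of naming the largest rises and falls.

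Of 28 hepatocyte transcription factors and nuclear receptors tested, 2 were higher and 1 lower, against 11.5% and 9.76% of all genes, with a median of -0.16 (0.02 without 3e). Foxa3 was 6.46, 12.0 and 7.58 in the SALI livers and 32.3 and 20.8 in the tumors (log2 fold change -1.52, adjusted p = 0.0164). Nr1i3 (CAR), a xenobiotic receptor, was 10.3, 11.1 and 10.9 in the SALI livers against 7.50 and 5.69 in the tumors (log2 fold change 0.64, adjusted p = 0.0358). Without C098 0 were called, without C096 1, without C097 or 3e 2, without 2e 7, and with C096 alone 1.

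The C 8w livers divided the calls unequally. The C 8w mean was nearer to the tumors for 926 of the 1232 higher genes (75.2%) and for 569 of the 1049 lower genes (54.2%). Where shared sequence was at most 2%, it was nearer to the tumors for 473 of 712 higher genes (66.4%) and 433 of 842 lower genes (51.4%). C 8w and C 12w share a code series, so that its part in these shares was not tested. Shared sequence was common among ribosomal protein genes. Of 54 tested, 46 were higher and 0 lower, against 11.5% and 9.76% of all genes, and 21 more were set aside. With a set-aside limit of 10%, 17 were called. Only 1 of the 54 had at most 2% shared sequence, and it was not called (log2 fold change 0.13). Of 10 genes of the mitochondrial genome tested, 3 were higher and 0 lower, against 11.5% and 9.76% of all genes, but 0 were called with a set-aside limit of 10%. Their median was -0.16, but 0.07 without 2e and -0.33 without 3e, and 1 of the 4 with at most 2% shared sequence was higher, with 5 called without 2e and 7 without 3e, and mt-Co1 was among the genes set aside.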

How the data were processed

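The authors deposited FPKM values in 1 table of 22504 Ensembl mouse genes, 22314 of them with a symbol, and it held 0 columns of other samples. The submitters' processing notes name Bowtie 0.12.2 and mm8 without their role. The quantifier, the annotation and the treatment of fragments that match several genes are not given in the sources used here. FPKM values hold no counts, so the counting error is unknown.

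Samples were grouped by their treatment labels. Genes were kept where at least 2 of the 5 samples reached 1 FPKM, genes with a whole group under 1% of the other group's mean were set aside, and log2(FPKM + 1) was compared with limma 3.58.1 in R 4.3.3 (eBayes with a trend, two-sided, Benjamini-Hochberg adjustment over all genes tested, threshold 0.05). Other steps used Python 3.11.15. The procedure was tested on simulated data. Shared sequence was computed from 50-base windows of GENCODE M21 transcripts. Members of 39 lists were counted without a test, and these members and lists were chosen with earlier results of these data known.

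Named genes are the 12 largest rises and 12 largest falls among called genes without overlap and with at most 2% shared sequence (clone and pseudogene names left out), up to 4 called members of each list, up to 2 not called members where fewer were called, the transcripts of stained or blotted proteins, and the 5 most abundant genes set aside in each direction. Marker genes were read as a check. Other members were named after their values were seen, for their known roles or because the tumors differed. Alternatives were a pseudocount of 0.1, floors of 0.5, 10 or none, genes near 0 kept or a limit of 10%, at most 2% shared sequence, 3 scalings, all 8 samples, no trend, a log2 fold change limit of 1 and each sample left out. Samples without Y-linked values were compared as an alternative chosen after seeing the data. Some results for single genes are left out and not reported.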

Additional observations from a re-analysis of the deposited data

How the results depend on the processing

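The 2281 calls became 1398 with a floor of 10 FPKM, 1398 when only genes with at most 2% shared sequence were fitted, 3702 with all 8 samples in the fit, 1202 with a limit of 1 on the size of the log2 fold change and 226 with only samples without Y-linked values. The 1232 higher calls became 639, 1947, 640 and 144 with at most 2% shared sequence, all 8 samples, the fold change limit and only samples without Y-linked values. The 1049 lower calls became 528, 1755, 562 and 82 with a floor of 10, all 8 samples, the fold change limit and only samples without Y-linked values. Leaving out 1 sample gave between 868 and 3005 calls, between 498 and 1374 higher and between 370 and 1631 lower. Fits that leave a group with 1 sample assume that it varies like the other group. The counts stayed within 1.5 times under the other alternatives, and among genes called in both fits 0 changed sign. Of the named genes' alternatives, 2369 stayed on their side of the threshold, 305 fell out of it, 6 entered it and 0 reversed. Of the list counts 541 stayed within 1.5 times and 200 moved. Of the list medians 669 stayed and 71 moved, and several are given without single samples beside their lists. The mitosis count was 2 with a floor of 10, which kept few of its genes, and 20 with a set-aside limit of 10%. No paired analysis was possible because the groups compared share fewer than 2 replicate numbers. The 3 and 2 samples, the unknown depth and the code series shared with the group limit every comparison. So do the Y-linked transcripts, which C097 and C098 held and neither tumor did.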

Other observations

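Counts of other gene groups are read against the 11.5% of all genes called higher and the 9.76% called lower. Of 27 Hippo pathway genes and YAP targets tested, in the SALI livers 4 were higher and 0 lower, with a median log2 fold change of -0.04 (-0.33 without 2e, 0.31 without 3e, -0.14 without C097 and 0.05 without C098). Ptpn14, a phosphatase that restrains YAP, was 6.16, 13.4 and 9.50 in the SALI livers against 1.04 and 2.31 in the tumors (log2 fold change 1.98, adjusted p = 0.0112), and Nt5e, an ecto-nucleotidase, was 132, 127 and 78.2 after SALI and 48.7 and 10.6 in the tumors (log2 fold change 2.20, adjusted p = 0.0443). Ccn2, a classical YAP target, was 7.34, 9.55 and 6.21 in the SALI livers, with 1.83 and 25.9 in the tumors (log2 fold change -0.02, adjusted p = 0.987), with 1 tumor on either side of the SALI livers. Of 23 AP-1 and immediate early factors, 3 were higher and 0 lower (median -0.23, which was -0.13 without 2e, -0.39 without C096 and -0.09 without C097), among them Maff at 14.2, 13.4 and 12.7 in the SALI livers and 6.31 and 5.24 in the tumors (log2 fold change 1.09, adjusted p = 0.00506). Of 14 Bcl2 family genes, 2 were higher and 0 lower (median 0.04, between -0.09 without 2e and 0.15 without 3e). Bcl2l11, which encodes the pro-apoptotic protein Bim, was 9.44, 10.5 and 9.93 in the SALI livers against 3.21 and 3.89 in the tumors (log2 fold change 1.27, adjusted p = 0.00286). Of 33 genes of the integrated stress and unfolded protein response, 2 were higher and 1 lower (median 0.09, between -0.14 without C096 and 0.22 without 3e), and Ddit3, which encodes the stress factor CHOP, was 102, 13.8 and 16.5 after SALI and 35.8 and 11.2 in the tumors (log2 fold change 0.50, adjusted p = 0.729), with C096 far above the other samples. With C096 alone against both tumors, 0 members of these 4 groups were called, and when 1 sample was left out the counts were between 0 (without C098) and 10 (without 2e) in the Hippo group, between 2 and 5 for AP-1, between 1 and 2 for Bcl2 and between 1 and 7 for the stress response. The erythroid and pancreas lists had 0 calls with C096 alone, and the pancreas list 0 without C098.

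Of markers of other organs and cells, 1 of 2 erythroid genes tested was lower, Alas2 at 0.789, 1.11 and 0.332 in the SALI livers, with 3.39 and 3.24 in the tumors (log2 fold change -1.33, adjusted p = 0.0103). The pancreas list held 1 tested gene, Cela1, an elastase also transcribed outside the pancreas, at 40.7, 65.0 and 57.7 in the SALI livers and 20.4 and 10.1 in the tumors (log2 fold change 1.82, adjusted p = 0.0131), and the pancreas genes Ins1, Ins2, Prss1 and Pnlip were listed at 0 in all 8 samples.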
